A study of Mus musculus with 31 samples.

Results

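The Fos and Jun genes encode the leucine zipper proteins that pair to form AP-1. This account covers their 7 members, Fos, Fosb, Fosl1, Fosl2, Jun, Junb and Jund, in mouse T cells given neuromedin U (NmU) or PBS. Members were every probe set that the platform's probe annotation pairs with exactly 1 of these symbols. That gave 9 probe sets among the 12422 in the deposited table that are not array controls, and 7 genes among the 8251 with a single symbol. The choice used names and no measured value.

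AP-1 binds DNA as a dimer of a Fos protein with a Jun protein, or of Jun proteins alone. Fos transcription is a classic immediate early response, switched on within minutes of a signal through MAP kinases and calcium and switched off again quickly, while Fosl1 is itself a known AP-1 target and is often described as following later. In T cells AP-1 works with NFAT at cytokine genes, and Junb takes part in Il4 transcription in Th2 cells.

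The cells were D10.G4.1, an established CD4+ Th2 clone of the mouse, and the agent was neuromedin U, a neuropeptide that acts through G protein-coupled receptors. Total RNA was taken 0.8, 3, 6 and 12 h after PBS or Neuromedin, giving 8 groups and 31 arrays with 1 sample each. There were 4 arrays in each group, and 3 in the NmU group at 3 h. All samples were of the same clone, with no other treatment named. Nothing in the labels says that replicates came from separate cultures, and the p-values then reflect only how far these samples scatter, which may be technical.

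Promoter sequence was looked at because Fos and Junb rose together at 0.8 h and no change was called for the probe set of Fosb. RefSeq (GRCm38.p6) promoter entries were found for 6 of the 7 members; Fosl1 had none. The 250 bases before the start site of each gene are given 5′ to 3′ on the strand of the gene, and capitals mark TGACG, the core of the cyclic AMP response element, and, in Fos, the TATAAA box. The window of Fos is chr12:85473640-85473889 on the plus strand, that of Junb is chr8:84978749-84978998 on the minus strand, and that of Fosb is chr7:19310046-19310295 on the minus strand.
Fos: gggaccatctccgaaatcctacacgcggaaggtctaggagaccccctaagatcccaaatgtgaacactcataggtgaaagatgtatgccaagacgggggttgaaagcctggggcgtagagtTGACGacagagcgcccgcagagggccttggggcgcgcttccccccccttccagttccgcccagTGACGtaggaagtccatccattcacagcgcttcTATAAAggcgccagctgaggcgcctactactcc
Junb: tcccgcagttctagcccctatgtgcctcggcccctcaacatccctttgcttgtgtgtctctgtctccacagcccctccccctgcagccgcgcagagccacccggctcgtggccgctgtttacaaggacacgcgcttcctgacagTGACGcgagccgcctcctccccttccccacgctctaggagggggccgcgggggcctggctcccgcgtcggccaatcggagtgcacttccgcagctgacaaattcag
Fosb: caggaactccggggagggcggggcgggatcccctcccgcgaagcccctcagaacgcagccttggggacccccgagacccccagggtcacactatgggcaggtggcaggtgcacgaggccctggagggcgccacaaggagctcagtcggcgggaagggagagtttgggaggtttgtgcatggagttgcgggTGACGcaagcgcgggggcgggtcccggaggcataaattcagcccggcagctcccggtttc

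The windows were searched on both strands. TGACG lay 129 and 66 bases before the start of Fos, 106 before that of Junb and 60 before that of Fosb, and 17.9% of all 27025 promoter windows of this length held it. The 8-base site TGANNTCA lay 45 bases before the start of Jun and 61 before that of Jund (12.0% of all windows). The AP-1 site TGANTCA was in none of the 6 windows (6.87% of all), and the serum response factor's CArG box was in none either (1.4% of all). Sequence more than 250 bases before the start was not searched, so that sites further upstream would be missed. TATAAA lay 33 bases before the start of Fos and in no other member (13.0% of all). GGGCGG was in the windows of Fos, Fosb, Fosl2 and Jun (32.9% of all). TGACG was thus shared by Fos and Junb, which rose, and by Fosb, for whose probe set no rise was called. A match of letters is only a description of the sequence.

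Signals are the deposited intensities on a linear scale. Within groups, arrays correlated at 0.951 to 0.982 across probe sets (not independent points). Of the T cell markers on the array, 7 of 9 passed the filter on dim probe sets, with a summed signal of 4025 to 5721 per array, and the Th2 markers passed in 5 of 5. Both CD8 markers were dim (summed signal 3.1 to 16.2), while 4 of 5 B cell, 3 of 6 myeloid and 1 of 5 mast cell markers passed at mean signals no higher than 76.6. The array labelled NmU at 6 h, replicate 4 stood apart. Of the 68 probe sets called at 0.8 h in a fit without it, 61 lay towards their NmU 0.8 h level on that array, against 33 to 43 on the other 3 arrays of the group. Calls that change without it are therefore given both ways, as are the 6 h effects of Fos, Junb and Fosl1.

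Fos was raised by NmU at 0.8 h, with the largest fold among the 6 members tested. Its signals (probe set 160901_at) in PBS at 0.8 h were 34.8, 25.9, 25.1 and 35.8, and in NmU they were 533.9, 476.2, 530.3 and 590.2. The groups did not overlap (NmU was above PBS on all arrays for 2.56% of all probe sets), with means of 30.4 ± 5.68 and 533 ± 46.6 (SD, n = 4 each). The difference was 17.7-fold, or 4.15 ± 0.45 on the log2 scale (limma, SE, adjusted p = 6.03e-07 over all 7930 probe sets tested). The PBS signals were dim, not far above the filter's 20.2, and the size of the fold depends on them. With 16 added to every signal in place of a floor, the difference was 3.57 on the log2 scale and still passed.

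By 3 h most of the Fos signal was gone. It read 59.5, 65.5 and 50.2 in NmU against 28.4, 20.5, 26.9 and 27.4 in PBS, so that every NmU array was still above every PBS array, as for 8.12% of all probe sets at this time. The excess over PBS was 6.49% of that at 0.8 h. The difference was 1.18 ± 0.48 on the log2 scale and did not pass in the fit of all arrays (limma adjusted p = 0.123). Without replicate 4 of NmU at 6 h the same difference had an SE of 0.18 and passed (limma adjusted p = 7.65e-05), since all groups share 1 estimate of the spread.

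At 6 h the signals of Fos in NmU were 33.6, 28.5, 31.1 and 336.7, and in PBS 24.1, 25.2, 25.1 and 20.2. Replicate 4 alone was far above the rest, while the other 3 NmU arrays lay just above the PBS range. The difference was 1.26 ± 0.45 on the log2 scale with it (limma adjusted p = 0.113) and 0.40 ± 0.18 without it (0.258), and the excess over PBS was 16.7% of that at 0.8 h with it and 1.48% without. At 12 h Fos read 23.9, 17.2, 21.2 and 20.4 in NmU and 33.1, 30.5, 20.9 and 17.0 in PBS. These groups overlapped, and the difference was -0.25 ± 0.45 (limma adjusted p = 0.884). In bulk samples, fewer cells carrying a transcript and less of it per cell cannot be told apart.

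Junb, the Jun partner tied to Th2 cytokine genes, was measured by a pair of probe sets. The brighter, 102363_r_at, read 421.8, 375.7, 361.5 and 309.8 in PBS at 0.8 h and 874.4, 771.4, 761.1 and 815.4 in NmU. The lowest NmU array was well above the highest PBS array, and the rise was 2.20-fold, or 1.14 ± 0.11 on the log2 scale (limma adjusted p = 1.71e-07). The other, 102362_i_at, read 228.2 to 265.2 in PBS and 652.3 to 749.0 in NmU, a rise of 1.52 ± 0.13 (limma adjusted p = 7.85e-09).

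After 0.8 h the differences of Junb were small. With 102363_r_at, the NmU signals at 3 h were 552.7, 499.7 and 537.1 and the PBS signals 315.3, 478.5, 394.9 and 450.8, a difference of 0.39 ± 0.12 on the log2 scale that just passed (limma adjusted p = 0.0457). This call is weak: 24 of 41 alternative settings lost it, 21 of them by leaving out 1 array, with adjusted p-values up to 0.289, and 102362_i_at did not pass (0.35 ± 0.14, adjusted p = 0.0987). At 6 h the NmU signals were 480.1, 425.1, 462.0 and 527.1 and the PBS signals 359.5, 424.9, 398.0 and 475.2, and the groups overlapped (0.20 ± 0.11, limma adjusted p = 0.397, and 0.14 ± 0.12, 0.616, without NmU replicate 4).

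At 12 h Junb by 102363_r_at read 453.8, 500.5, 457.3 and 478.2 in NmU and 419.3, 347.8, 334.0 and 360.0 in PBS. All 4 NmU arrays lay above all 4 PBS arrays, as was so for 3.67% of all probe sets at this time. The difference of 0.38 ± 0.11 on the log2 scale did not pass (limma adjusted p = 0.129), and the groups overlapped with 102362_i_at (0.30 ± 0.13, adjusted p = 0.352).

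Fosl1, which encodes Fra-1, a Fos protein without the C-terminal transactivation domain of Fos, was also raised at 0.8 h, the first time sampled. There its probe set, 99835_at, read 50.8, 50.3, 37.6 and 46.1 in PBS and 117.5, 130.9, 138.9 and 158.5 in NmU. The groups did not overlap, and the rise was 2.96-fold, or 1.56 ± 0.21 on the log2 scale (limma adjusted p = 1.65e-05).

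Fosl1 was also raised at 3 and 6 h. Its signals at 3 h were 127.3, 103.6 and 104.6 in NmU against 39.0, 28.8, 40.5 and 42.3 in PBS (1.58 ± 0.22, limma adjusted p = 1.83e-05). At 6 h the signals were 79.9, 76.9, 91.8 and 146.8 against 43.4, 21.4, 43.1 and 41.3. Every NmU array was above every PBS array at both times (6.54% of all probe sets at 6 h). The 6 h difference was 1.41 ± 0.21 on the log2 scale (limma adjusted p = 8.23e-05), and 1.20 ± 0.20 (0.000359) without replicate 4. At 12 h the signals were 39.1, 58.5, 58.5 and 57.6 in NmU and 34.3, 37.4, 36.7 and 43.1 in PBS. Replicate 1 lay within the PBS range and the other 3 NmU arrays above it, and the difference of 0.48 ± 0.21 did not pass (limma adjusted p = 0.358).

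**Figure D1:**
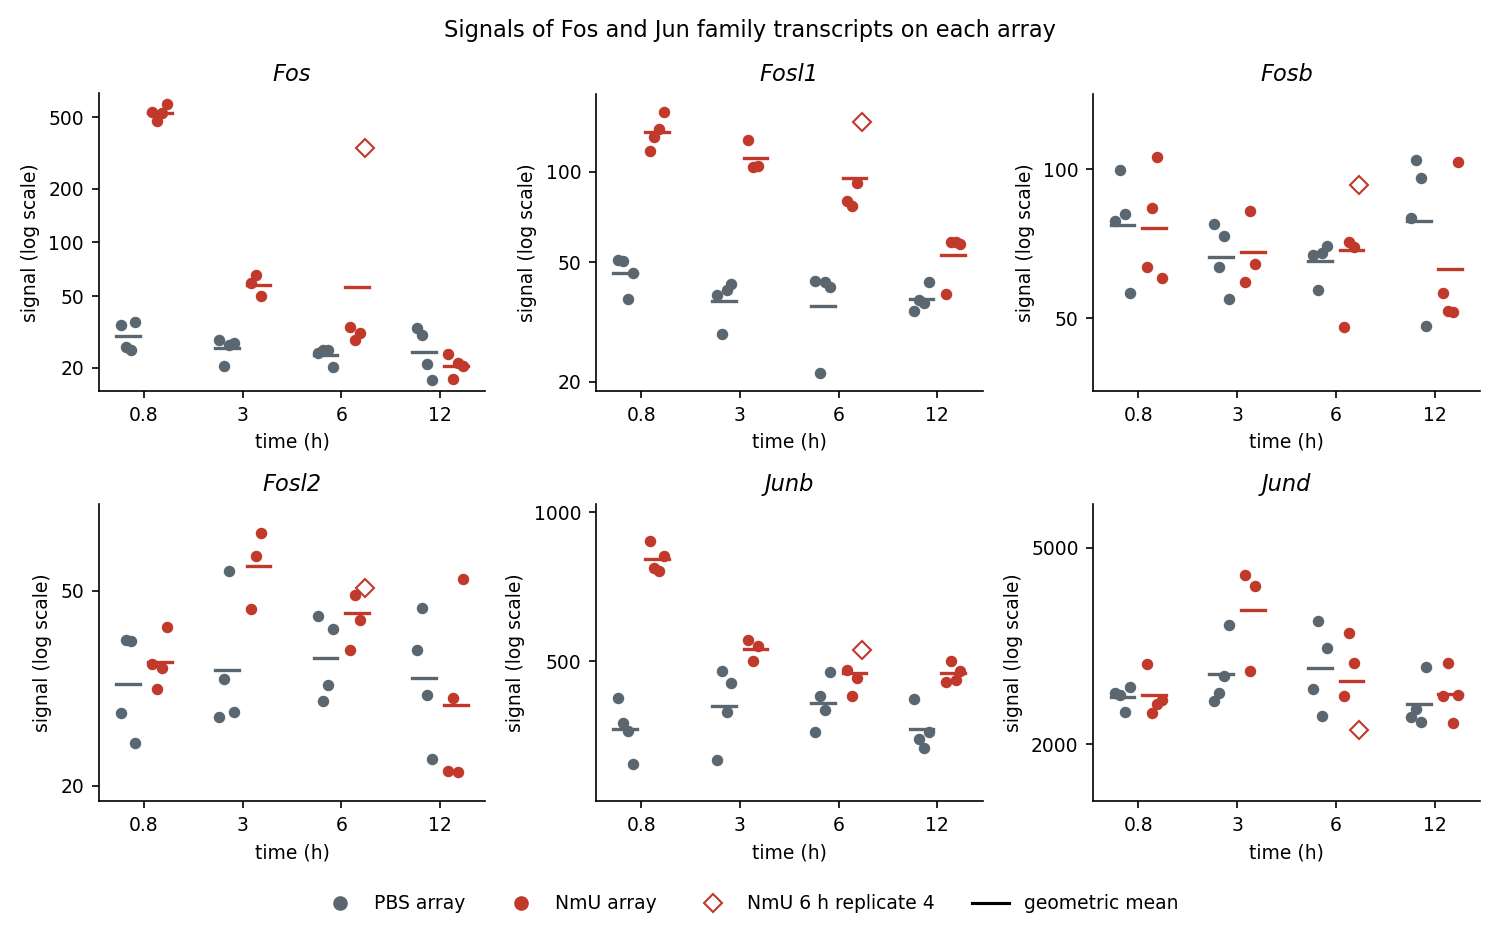
Signal of each array (vertical log scale, deposited intensity) by time in hours (evenly spaced) for the 6 members that passed the filter on dim probe sets, with PBS in grey, NmU in red and geometric means as bars; the open diamond is NmU at 6 h, replicate 4. Fos reaches 476.2 to 590.2 in NmU at 0.8 h and is near PBS by 6 h except for the diamond at 336.7, while Fosl1 is above every PBS array at 0.8, 3 and 6 h.

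The other members did not pass the test at any of the 4 times. Fosb, the close relative of Fos and often its companion in immediate early responses (103990_at), had a lowest, median and highest signal of 47.9, 69.7 and 105.7 over the 31 arrays. In PBS at 0.8 h it read 56.2 to 99.8 and in NmU 60.3 to 105.7, and the groups overlapped. Its 0.8 h difference was -0.02 on the log2 scale with a 95% interval of -0.53 to 0.49. The mean of Fosb over the arrays, 72.2, lay below that of the brightest myeloid marker (76.6). Passing the filter therefore does not show that Fosb was expressed, and its flat signal says only what this probe set read.

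Fosl2, which encodes Fra-2 (103546_at), ranged from 21.4 to 65.5. Its mean of 38.2 also lay below that of the brightest myeloid marker (76.6), so passing the filter does not show that Fosl2 was expressed. At 3 h it read 46.0, 58.8 and 65.5 in NmU and 27.7, 33.0, 55.0 and 28.3 in PBS. PBS replicate 3 lay among the NmU arrays, and the difference of 0.70 ± 0.28 on the log2 scale did not pass (limma adjusted p = 0.111). It passed without PBS replicate 3 (0.93, limma adjusted p = 0.0329) and with quantile normalisation (0.75, 0.049).

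Jund, which encodes a Jun protein that resting cells commonly hold (102364_at), ranged from 2137 to 4400. At 3 h it read 4400.2, 2814.8 and 4189.8 in NmU and 2442.3, 2544.2, 2753.3 and 3485.1 in PBS, and the groups overlapped. The difference of 0.42 ± 0.17 on the log2 scale did not pass (limma adjusted p = 0.112). It passed without PBS 3 h replicate 4 (0.53, limma adjusted p = 0.0444) or without NmU 3 h replicate 2 (0.63, 0.0261).

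Jun itself was not measurable here. Its probe set, 100130_at, read 1.5 to 16.1 and was at or below the floor of 5.8 on 27 of 31 arrays, with its highest value on NmU at 3 h, replicate 3. It was not tested, and this says only that the probe set was dim. A further Fos probe set, 161716_at, read 1.3 to 18.2, was at or below the floor on 9 arrays and was also left out. It did not follow 160901_at, with 3.3 to 17.5 in PBS and 9.1 to 13.8 in NmU at 0.8 h. Averaging both Fos probe sets lowered the rise at 0.8 h to 2.02 on the log2 scale, which still passed.

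Of the 6 members tested, 3 were called higher at 0.8 h (Fos, Fosl1 and Junb), beside 0.782% of all probe sets tested. At 3 h it was 2 (Fosl1 and Junb), beside 4.44%, and 3 without NmU 6 h replicate 4, with Fos added, beside 4.48%. At 6 h only Fosl1 was called higher, beside 2.85% (2.91% without that array). At 12 h none of the 6 was called by limma, beside 0.858% called higher, and 2 had an unadjusted p under 0.05. No member was called lower at any time, beside 0.0631%, 5.73%, 2.03% and 0.404% of all probe sets at 0.8, 3, 6 and 12 h. Over time in PBS alone none of the 6, each by its brightest probe set, was called by the moderated F test of limma. None of these had an unadjusted p under 0.05, and 0.0126% of all probe sets passed. The other Junb probe set, 102362_i_at, was not called by this F test either (adjusted p = 0.397). Its PBS level nevertheless lay 0.35, 0.52 and 0.37 (SE 0.13) above that at 0.8 h on the log2 scale at 3, 6 and 12 h. A call at 1 time and not at another does not show that effects differ, so the differences between times were tested themselves.

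The response of Fos fell after 0.8 h. Its effect of NmU at 3 h was -2.96 ± 0.66 relative to its effect at 0.8 h on the log2 scale (limma adjusted p = 0.0101). The same difference was -2.89 ± 0.63 at 6 h (0.0212) and -4.40 ± 0.63 at 12 h (0.000158). Without replicate 4 the 6 h value was -3.75 ± 0.25 (limma adjusted p = 1.48e-10). The 6 h call was lost with only the groups compared (0.119), with the replicate block (0.0641), and on leaving out NmU 0.8 h replicate 4 or NmU 6 h replicate 1, 2 or 3 (adjusted p up to 0.0734). Averaging both Fos probe sets gave -1.24 at 3 h and -1.30 at 6 h and ended both calls (adjusted p = 0.214 and 0.252).

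The response of Junb also fell. Its effect of NmU relative to 0.8 h was -0.75 ± 0.17 at 3 h (limma adjusted p = 0.0106), -0.94 ± 0.16 at 6 h (0.00237; -0.997 ± 0.17 and 0.00104 without replicate 4) and -0.76 ± 0.16 at 12 h (0.0145). With 102362_i_at the values were -1.16, -1.37 (-1.49 without replicate 4) and -1.22, and each passed. A fit of only the groups compared ended the call at 3 h (adjusted p = 0.0754), and scaling to a common median ended that at 12 h (0.0521).

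The effect of Fosl1 was not called as different from that at 0.8 h at any later time with all arrays. It differed from that at 0.8 h by 0.02 ± 0.30 at 3 h (limma adjusted p = 0.984, 95% interval -0.61 to 0.64) and by -0.15 ± 0.29 at 6 h (0.875, -0.75 to 0.45), or -0.36 ± 0.27 (0.616) without replicate 4. At 12 h the difference was -1.08 ± 0.29, which did not pass with all arrays (limma adjusted p = 0.0851) and passed without NmU 6 h replicate 4 (0.0393). The excess of Fosl1 over PBS, as a share of that at 0.8 h, was 82.2% at 3 h, 68.2% at 6 h (50.5% without replicate 4) and 17.2% at 12 h. For Junb by 102363_r_at these shares were 27.4%, 13.5% (9.43%) and 24.4%. Fosl1 was thus raised at the first time sampled, together with Fos and Junb. No array was taken before 0.8 h, and the order in which the members began to rise was not measured.

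Counted over the family, 2 of 6 members, Fos and Junb, had a smaller effect at 3 h than at 0.8 h, beside 1.79% of all probe sets. The same 2 did so at 6 h, beside 0.416% (0.857% without NmU 6 h replicate 4), and at 12 h, beside 0.517%. Without that array Fosl1 joined them at 12 h, beside 0.579%. The F test for an effect that differs between times gave adjusted p = 0.000618 for Fos, 0.00239 for Junb and 0.0539 for Fosl1 (limma), beside 4.04% of all probe sets called. Without NmU 6 h replicate 4 Fosl1 passed too (adjusted p = 0.028), beside 4.27%. From 3 to 6 h and from 6 to 12 h no member's effect was called as different by limma, with 1 and 2 members at an unadjusted p under 0.05 and 0.719% and 0.101% of all probe sets called in either direction.

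**Figure D2:**
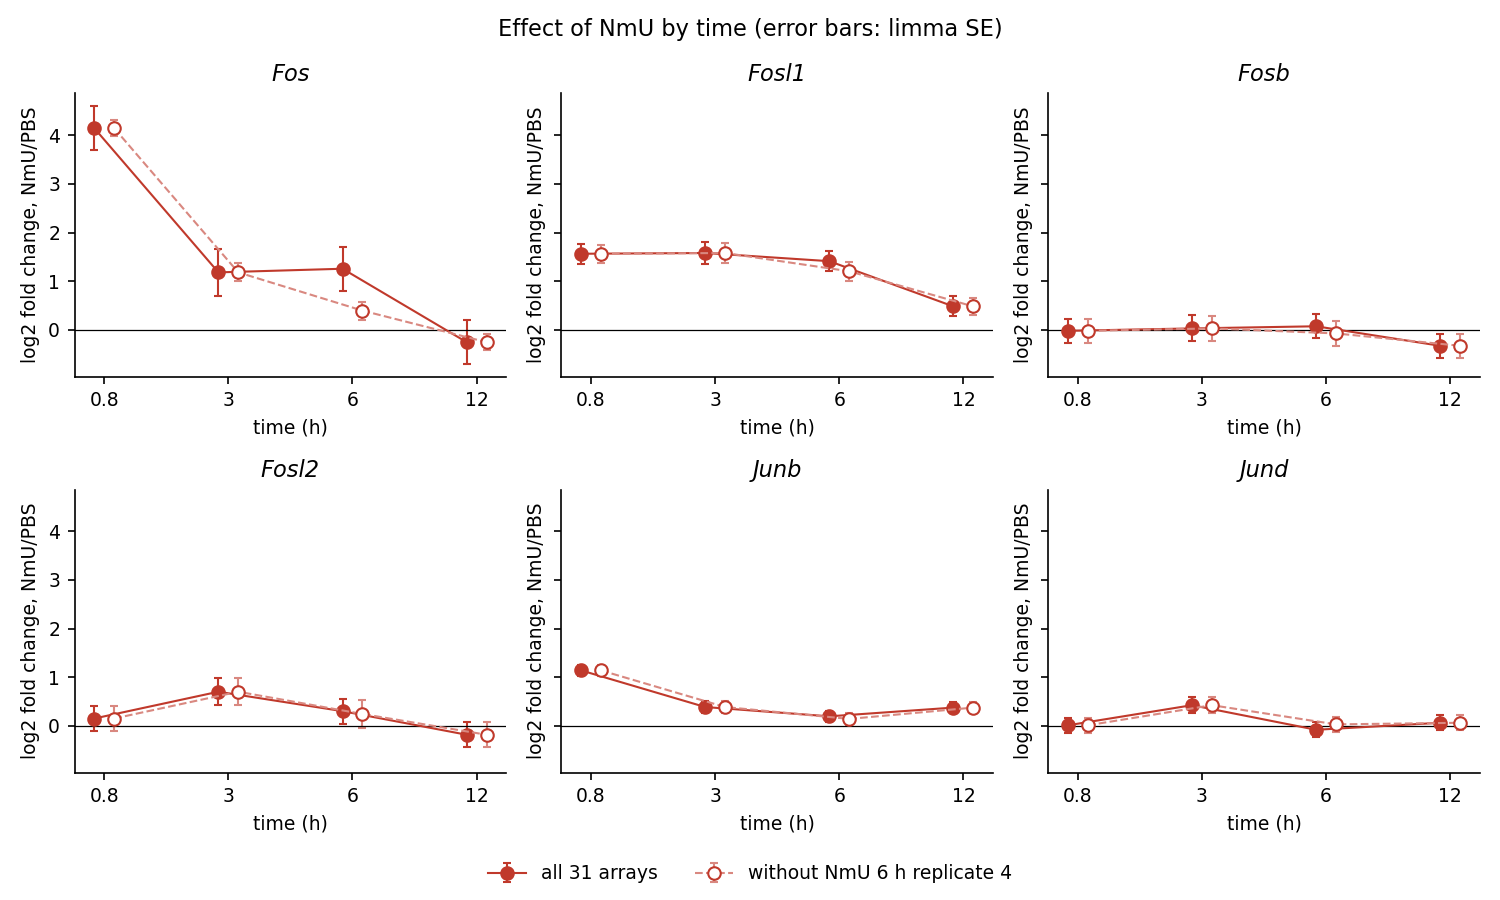
Log2 fold change of NmU over PBS (vertical) by time in hours (evenly spaced) for the 6 members tested, with SE bars from limma, for all 31 arrays (filled) and without NmU at 6 h, replicate 4 (open). Fos drops from 4.15 to 1.18 between 0.8 and 3 h, Fosl1 stays at 1.56, 1.58 and 1.41 over the first 3 times, and Fosb stays near 0 until 6 h.

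The unequal courses were also followed within each array, which does not depend on the scaling between arrays. Levels of different genes are not comparable, so that only the change of a difference with time has a meaning. On the log2 scale, Fosl1 minus Fos was -2.18 to -1.86 on the 4 NmU arrays at 0.8 h and 0.66 to 1.10 on the 3 at 3 h. At 6 h it was 1.25 to 1.56 on replicates 1 to 3 and -1.20 on replicate 4, and at 12 h it was 0.71 to 1.77. Every later NmU array, replicate 4 included, was above every array at 0.8 h.

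The mean of Fosl1 minus Fos moved by 2.91, 2.73 (3.38 without replicate 4) and 3.33 at 3, 6 and 12 h. With all arrays each move had a two-sided exact permutation p of 0.0286, the smallest these group sizes allow, and 0.0429 after Benjamini-Hochberg adjustment over the 9 within-array comparisons, a test added after the values were seen. With 1 compared array fewer the moves were 2.46 to 3.55. The call was lost in 7 of 7 repeats at 3 h, 4 of 8 at 6 h and 8 of 8 at 12 h. Their adjusted exact permutation p reached 0.129. At 6 and 12 h the smallest exact p these repeats allow, with 4 against 3 arrays, is still 0.0286. At 3 h the groups left are smaller and cannot reach it. The adjusted p also depends on the other comparisons among the 9. In PBS, Fosl1 minus Fos moved by -0.07, -0.01 and 0.01.

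Junb minus Fos moved by 2.59 at 3 h and 3.92 at 12 h (adjusted exact permutation p = 0.0429 each). At 6 h it moved by 2.47, or 3.28 without replicate 4 (0.0964 and 0.0367). Fosl1 minus Junb moved by 0.32 at 3 h and 0.26 at 6 h (0.11 without replicate 4), neither past the threshold (adjusted exact permutation p = 0.0735 and 0.314, and 0.6 without replicate 4), and by -0.60 at 12 h (0.0429). With 1 compared array fewer, Junb minus Fos moved by 2.47 to 2.72 at 3 h and 3.81 to 4.02 at 12 h. Fosl1 minus Junb moved by -0.70 to -0.47 at 12 h. None of these repeats passed (adjusted exact permutation p at least 0.0514). In PBS, Junb minus Fos moved by 0.38, 0.52 and 0.29 at 3, 6 and 12 h (unadjusted exact permutation p = 0.0286 at 6 h). Fosl1 minus Junb moved in PBS by -0.45, -0.53 and -0.28. All 9 comparisons in PBS had an adjusted exact permutation p of at least 0.257. Whether the moves in NmU differ from those in PBS was not tested.

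**Figure D3:**
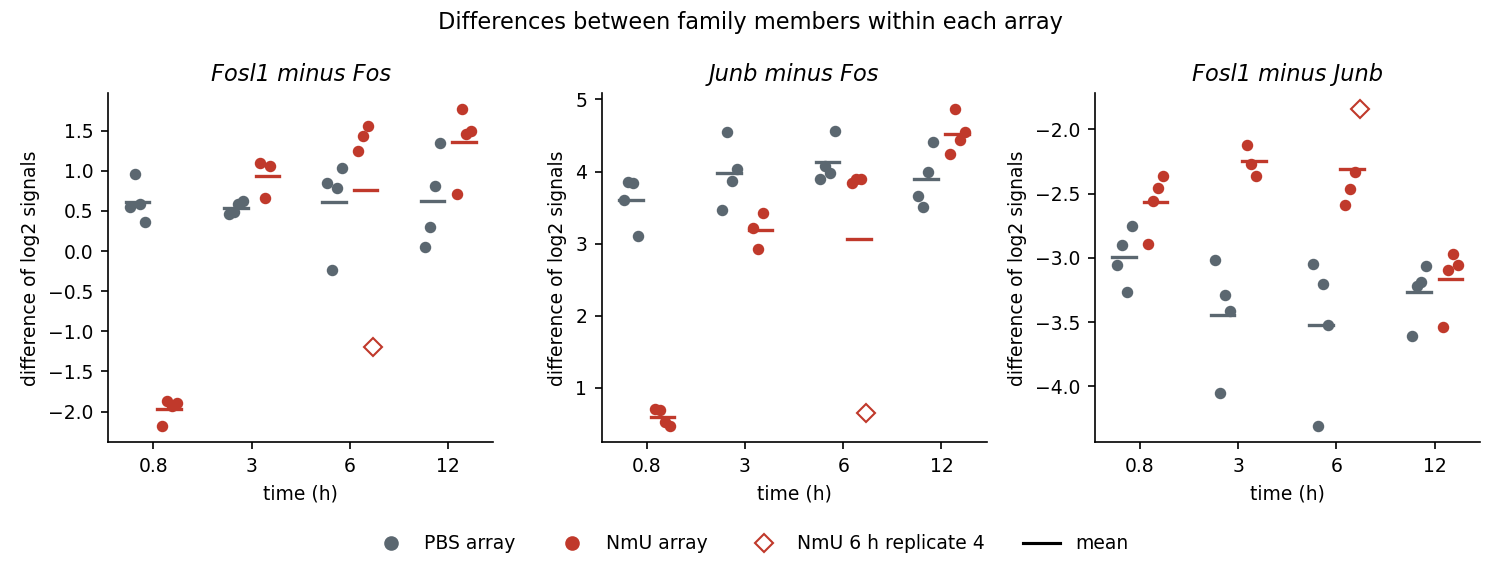
Difference of log2 signals between pairs of members on each array (vertical) by time in hours (evenly spaced), with PBS in grey, NmU in red, means as bars and NmU at 6 h, replicate 4 as an open diamond. Fosl1 minus Fos is -2.18 to -1.86 in NmU at 0.8 h and higher on every later NmU array, the diamond (-1.20) being the nearest to the early arrays.

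On NmU at 6 h, replicate 4, the members that respond at 0.8 h were all high. Fos read 336.7 against 28.5 to 33.6 on the other 3 arrays, which is 60.9% of the way from their mean to the NmU 0.8 h mean. Fosl1 read 146.8 against 76.9 to 91.8 (119%), and Junb by 102363_r_at read 527.1 against 425.1 to 480.1 (20.4%). By 102362_i_at Junb read 504.3 against 322.4 to 419.6 (41.2%). Of the other members, Fosb read 93.1 (47.9 to 71.3) and Fosl2 50.8 (37.9 to 49.0), while Jund had its lowest value there, 2137 (2504 to 3360). Egr1 and Egr2, zinc finger factors of the same early response, lay 42.8% and 53.4% of the way. Why this array differs was not tested.

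The genes whose log2 signals were most like those of each member over the 31 arrays were ranked by Pearson r among 566 genes with group means at least 1 apart on the log2 scale. The points share arrays and 8 groups, so that r is a description. For Fos they were Ier2 (0.98), Egr1 (0.98), Egr2 (0.95), Nr4a1, an orphan nuclear receptor (0.94), and Zfp36, which destabilises messenger RNAs (0.92). Without replicate 4 the order was the same.

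For Junb the nearest were Ier2 (0.88), Egr2 (0.87), Tnf (0.84), Rhob (0.84) and Egr1 (0.82). For Fosl1 they were Il6 (0.90), Egr2 (0.88), Tnf (0.88), Nr4a1 (0.87) and Il10 (0.87). Among these 5 nearest genes, cytokines stood beside Fosl1 and, with Tnf, beside Junb, and not beside Fos. Without replicate 4, the order for Junb was the same, while for Fosl1 Il6 stayed at rank 1, Il10 moved to 2 and Egr2 to 5, Tnf stayed at 3, and Nr4a1 moved to 8. Il6 showed effects of 1.40, 1.35, 1.09 and 0.66 on the log2 scale at 0.8, 3, 6 and 12 h, beside 1.56, 1.58, 1.41 and 0.48 for Fosl1.

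Among other proteins that can pair with Fos or Jun, 14 of 18 listed entries were tested. Atf5 was matched to a further listed symbol as well as its own and is counted repeatedly among the 14. Atf3, a stress-induced partner, rose by 0.94 ± 0.12 at 0.8 h and 0.69 ± 0.13 at 3 h on the log2 scale (limma adjusted p = 6.6e-06 and 0.000382). Mafk, a small Maf protein, rose at 3 h (0.52 ± 0.16, adjusted p = 0.0353) and at 6 h (0.57 ± 0.15, 0.0209), the latter not without NmU 6 h replicate 4 (0.44, 0.0853). None of the 14 entries was called lower at any time or higher at 12 h. The median of the list, with Atf5 counted repeatedly, was 0.00, 0.15, 0.17 and -0.04 at the 4 times. Over all 5905 genes tested, each by its brightest probe set, the median was -0.03, -0.04, 0.01 and -0.02. Atf4 and Nfe2l1 did not pass at any time.

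Of the kinases and factors upstream of Fos and Jun transcription, 22 of 30 listed were tested and 0 were called at 0.8 h. The kinase gene Map3k8 passed there without NmU 6 h replicate 4 (0.69 in both fits, limma adjusted p = 0.0686 and 2.6e-05). At 3 h Mapk8, which encodes the Jun kinase JNK1, rose by 0.55 ± 0.13 (0.00782) and Map2k3 by 0.42 ± 0.11 (0.0118), while Mapk9, which encodes JNK2, fell by 0.56 ± 0.17 (0.0352). At 6 h Elk3, an ETS factor of the serum response, rose by 0.61 ± 0.18 (0.0404; 0.70 without replicate 4) and Mapk14, which encodes p38 alpha, by 0.34 ± 0.09 (0.021). None was called at 12 h. Without NmU 6 h replicate 4, Map3k1 was also called lower at 6 h (-0.59, adjusted p = 0.0497). The median of the list was 0.00, -0.09, 0.08 and -0.07 at the 4 times. These are transcript levels and give no measure of kinase activity.

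Of 12 genes for ligases and cofactors of Fos or Jun proteins, all tested, 2 rose and 1 fell at 3 h. Nfatc1, an NFAT factor that binds DNA beside AP-1, rose by 1.08 ± 0.18 on the log2 scale (limma adjusted p = 0.000188) and the ligase gene Fbxw7 by 0.65 ± 0.18 (0.0219). The ligase gene Nedd4 fell by 0.50 ± 0.10 (0.00114). None was called at 0.8, 6 or 12 h with all arrays. Without NmU 6 h replicate 4, Nfatc1 was called higher and Crebbp lower at 6 h (0.65 and -0.98, adjusted p = 0.0356 and 0.0265). The list's median was -0.10, 0.19, 0.05 and 0.00.

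Genes with described AP-1 sites were higher in part. Of 16 tested (28 listed), 5 were called higher at 0.8 h, 8 at 3 h, 8 at 6 h (7 without NmU 6 h replicate 4, Ccl2 being lost) and 4 at 12 h, and 0 lower. The Th2 cytokine Il4 rose by 1.82, 2.70, 1.89 and 1.21 on the log2 scale at the 4 times, each past the threshold (largest SE 0.11, limma adjusted p at most 4.2e-08). Il5 showed 0.10 at 0.8 h and rose by 1.74, 2.52 (2.69 without replicate 4) and 2.83 afterwards, and Il13 rose by 1.08, 1.75, 1.12 and 0.85. The median of the list was 0.28, 0.81, 1.00 and 0.33.

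Other immediate early transcription factors were called mostly at the early times. Of 9 tested (13 listed), 6 rose and 1, Klf10, fell at 0.8 h. At 3 h 5 were higher, at 6 h 3 (2 without NmU 6 h replicate 4, Klf6 being lost), and at 12 h 1, Myc. Egr1 rose by 4.57 ± 0.45 at 0.8 h and 1.59 ± 0.48 at 3 h (limma adjusted p = 1.01e-07 and 0.033), and was at 1.04 ± 0.45 (0.207) at 6 h, or 0.20 without replicate 4. Their median was 0.44, 0.35, 0.53 and 0.07. All these lists are counted beside the same 0.782%, 4.44%, 2.85% and 0.858% of all probe sets called higher and 0.0631%, 5.73%, 2.03% and 0.404% called lower at the 4 times.

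**Figure D4:**
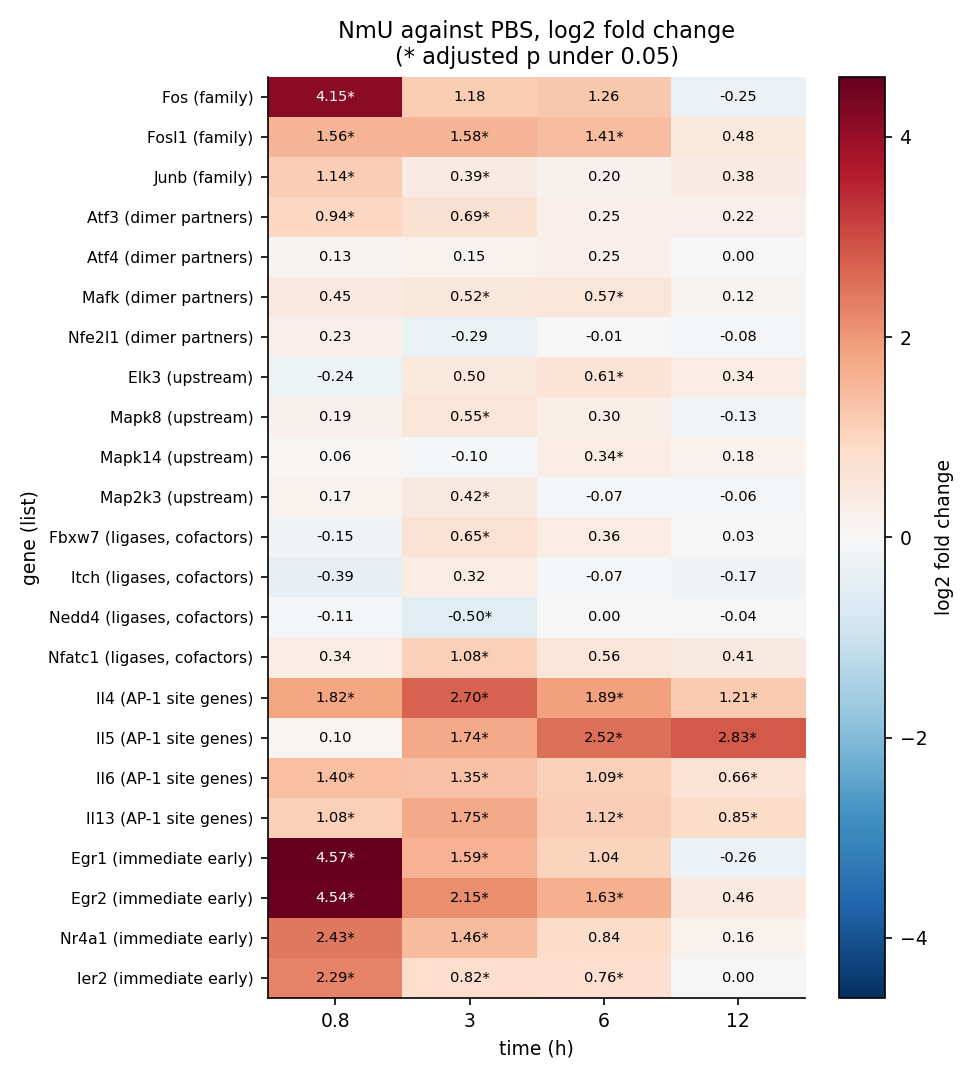
Log2 fold change of NmU over PBS at 0.8, 3, 6 and 12 h for the 3 members called at any time and up to 4 genes of each related list, with red for higher in NmU, blue for lower and a star for an adjusted p under 0.05 in the fit of all 31 arrays. Fos, Egr1 and Egr2 each have their highest value at 0.8 h (4.15, 4.57 and 4.54). Fosl1 is starred at 0.8, 3 and 6 h, and Il5 reaches 2.83 at 12 h.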

How the data were processed

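Per the labels, total RNA of 31 samples of D10.G4.1 cells was measured on 1 array each. The deposited values are linear intensities of probe sets from 1 colour. What the authors used as scanner, probe summary and scaling is not given in the sources used here. Means after taking 2% of probe sets off each end lay between 150.095 and 150.113 in the table, so that arrays share a common scale, and changes are relative to total signal. No further normalisation was applied. Before taking log2, a floor of 5.8 (20th percentile) was set, which understates changes of dim transcripts. Probe sets above a signal of 20.2, the 40th percentile, in mean log2 value in at least 1 group were kept (7930 probe sets, 5905 genes, 7 probe sets of 6 members). A filter that keeps a probe set for any high group favours responders.

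A model with 1 mean per group was fitted to all 31 arrays with limma 3.58.1 in R 4.3.3 (lmFit, eBayes, 23 residual and 2.72 prior degrees of freedom), with two-sided p-values, Benjamini-Hochberg adjustment over the 7930 probe sets and a threshold of 0.05. Within-array differences were tested by exact permutation in Python 3.11.15 with numpy 2.4.6. The code was tested on simulated data. A gene with several probe sets was represented by the brightest on average. Named were all members, the 5 genes most like Fos, Junb and Fosl1, and up to 4 genes of each list with the lowest F test p; Map3k1, Map3k8, Mapk9, Crebbp, Klf6, Ccl2, Klf10 and Myc were named after their values were seen. Members, lists and tests were chosen with earlier results of these data known. Symbols of 10817 of 10833 single-symbol probe sets were matched by Entrez number to RefSeq, and 0 changed. The number of arrays limits the precision. Alternatives were other floors and scalings, no filter, other models of the spread, a replicate block, and leaving out each array.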

Additional observations from a re-analysis of the deposited data

Results flagged for a closer look

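Of 49 groups of 4 arrays examined, 5 held an array far from the rest of its group; chance alone gives about 1 in 20 groups. These were Fos in NmU at 6 h, replicate 4 (signal 336.7, the others 28.5 to 33.6), and in PBS at 3 h, replicate 2 (20.5, the others 26.9 to 28.4). For Fosl1 they were PBS at 6 h, replicate 2 (21.4, the others 41.3 to 43.4), and NmU at 12 h, replicate 1 (39.1, the others 57.6 to 58.5). For Fosb it was NmU at 12 h, replicate 4 (103.4, the others 51.5 to 56.3).

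Effects of NmU that differed by a test from those at 0.8 h were those of Fos, by -2.96, -2.89 and -4.40 on the log2 scale at 3, 6 and 12 h. Those of Junb differed by -0.75, -0.94 and -0.76 with 102363_r_at and by -1.16, -1.37 and -1.22 with 102362_i_at.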

How the results depend on the processing

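Of 2178 effects of the 6 tested members under the alternatives, 2133 kept their side of the threshold and their direction where called, 34 lost a call, 11 gained one and 0 called values changed sign. The calls of Fos, Fosl1 and Junb at 0.8 h and of Fosl1 at 3 and 6 h held under all of them. Rescaling moved the median of all probe sets by at most 0.08. With only the groups compared, the effect of Fos at 3 h passed (1.18, adjusted p = 0.0143), as did Fosl1 at 12 h against 0.8 h (-1.08, 0.0169), while Fos at 6 h (-2.89, 0.119) and Junb at 3 h (-0.75, 0.0754) against 0.8 h were lost, and 171, 164 and 56 probe sets were called at 3, 6 and 12 h in place of 806, 387 and 100. With a pseudocount of 16 and no floor, Fosl1 at 12 h against 0.8 h passed (-0.94, 0.0278), and Fosl1 minus Fos within arrays moved by 2.63, 2.37 and 2.76 (adjusted exact p = 0.0514). With the mean over probe sets, Fos at 3 and 6 h against 0.8 h was -1.24 and -1.30 and lost. Fosl1 minus Fos then moved by 1.48, 1.22 and 1.25 and no longer passed (adjusted exact permutation p = 0.0514, 0.0857 and 0.0514). A common median ended the call of Junb at 12 h against 0.8 h (-0.80, 0.0521) and left 1 member called at 3 h, as did a required 1.5-fold change, which left 460, 192 and 65 probe sets at 3, 6 and 12 h. Array weights gave 109 probe sets at 0.8 h and 677 at 6 h. Beyond fewer samples or genes entering a fit, the cause was not tested.

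Same-numbered replicates showed little likeness: 5 of 15 pairs correlated over 0.1 (-0.22 to 0.20, median 0.06, against -0.01 for other pairs). Whether they were paired was not tested. With the replicate block, 1 member was called at 3 h and Fos at 6 h against 0.8 h was lost (-2.89, adjusted p = 0.0641).

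Leaving out each array in turn gave 1 to 3 members called at 3 h and 1 to 2 at 6 h (Fos being added without NmU 6 h replicate 2, adjusted p = 0.0476), and 238 to 500 probe sets at 6 h and 66 to 125 at 12 h. The effect of Fos was 1.07 to 1.29 at 3 h and 0.40 to 1.58 at 6 h. Against 0.8 h, Fos at 6 h was -3.75 to -2.56 and was lost on leaving out replicate 4 of NmU at 0.8 h or any of replicates 1, 2 and 3 at 6 h (adjusted p up to 0.0734). Fosl1 at 12 h was -1.15 to -0.94 and passed when either PBS 6 h replicate 2 or replicate 4 of NmU at 6 h was left out. Fosl1 minus Fos within arrays moved by 2.83 to 3.05, 2.46 to 3.38 and 3.19 to 3.55 at 3, 6 and 12 h. It lost its call in 7 of 7, 4 of 8 and 8 of 8 of these repeats (adjusted exact permutation p up to 0.129).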
